A study of Drosophila melanogaster with 42 samples.

Results

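Fatp1 and NaPi-III are membrane transporter genes of Drosophila melanogaster, and each was followed through 1 transcript, FBtr0080133 for Fatp1 and FBtr0076213 for NaPi-III, which are 2 of the 16637 transcripts in the deposited table. The transcripts were taken by identifier, but they had been selected on earlier results of these data. The sources used here do not list the values behind that choice. For both, the differences between ring gland and whole larva and the changes from 4 to 36 h were taken to be among them. For NaPi-III the differences between genotypes were also taken so. All of these are given here as a description, without a test. Tests are given for single time steps in both transcripts, for the change between 18 and 8 h before puparium formation in both, and for genotype in Fatp1. Even these tests use the arrays on which the transcripts were known, and the 3 time steps of a tissue add up to its known change from 4 to 36 h. For NaPi-III, the genotype differences taken as known also fix how its changes from 18 to 8 h differ between crosses. Whether the choice also drew on the tested values is not known here.

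Fatp1 belongs to the fatty acid transport protein family, whose members are membrane proteins that take part in the uptake of long-chain fatty acids and join them to coenzyme A. NaPi-III is a sodium-dependent carrier of inorganic phosphate, the ion that cells use to make nucleic acids, phospholipids and ATP, and dPit is among its synonyms. The larval ring gland is a compound endocrine organ. Its largest portion, the prothoracic gland, makes the steroid ecdysone from dietary sterols, and it is joined to the corpora allata and the corpora cardiaca. The brain hormone PTTH acts on the prothoracic gland through the receptor Torso and, within the cell, through Ras.

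The study used one-colour Cy3 NimbleGen arrays, 42 in all, in 14 groups of 3 that the labels call biological replicates. In the wild-type part, w1118 ring glands and whole w1118 larvae were collected at 4, 8, 24 and 36 h into the third instar. The driver-cross part held ring glands collected 18 and 8 h before puparium formation from 3 crosses of phantom-Gal4, a driver active in the prothoracic gland. Its partners were w1118 for the control, RasV12, which encodes a permanently active Ras, and Torso-RNAi, which targets the receptor. All 3 crosses carried the driver, and all larvae were fed yeast paste in darkness. The labels record a faster development for RasV12 and a delay for torso-RNAi, so larvae matched by time to puparium need not be of the same age. Whole larvae contain their own ring glands. The 9 arrays of the 8 h driver-cross groups are titled 18 h but described as 8 h. Their titles also call the gut partly clear, where those of the 18 h groups call it blue. The description was followed, and each 8 h result rests on that.

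Values are RMA intensities on a linear scale, and their precision is limited by 3 arrays in a group. Whether the arrays of compared groups overlapped is given as a description. The share of all transcripts without overlap was not counted, so absence of overlap is not shown to be particular to these transcripts. The share of all transcripts with an unadjusted p under 0.05 was likewise not counted, and such counts are a description. The median intensity of an array was 276.1 to 335.5 for wild type and 348.8 to 393.6 for the driver crosses, whose lowest values were also lower. The parts were treated as normalized separately, and no level was compared across them. Replicate arrays correlated with r from 0.9742 to 0.999 over transcripts, which are not independent. The files do not pair identifiers with genes, and 16 transcripts could be named. None of the 39 marker genes chosen for ring gland, fat body, muscle, gut, nervous system, hemocytes and salivary gland was among them, so the labelled tissues were not checked against markers, nor the manipulated genes against the genotypes. Of a list of 29 genes of fatty acid uptake, activation and storage only Fatp1 itself could be read, of 15 genes of phosphate transport and sensing only NaPi-III, and of 14 genes each for PTTH and Ras signalling and for ecdysone synthesis 0. In such bulk RNA, fewer cells of a type and less RNA per cell cannot be told apart.

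Fatp1 had its highest level of the wild-type part in the youngest ring glands. At 4 h the 3 gland arrays read 7229, 7214 and 6163, a mean of 6870 ± 612 (SD, n = 3). At 8 h they read 3929, 4529.99 and 5108, all below the 4 h arrays. At 24 h they read 4461, 4489.55 and 4232, inside the 8 h range. At 36 h they read 3488, 2811 and 3069, below every earlier gland array. The ranges in gland thus overlapped between 8 and 24 h and at no other step.

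The whole-larva levels of Fatp1 were lower at every time and separated at every step. The arrays read 3719, 5171 and 3622 at 4 h. At 8 h they read 1987, 1837 and 1699.6. They read 1488, 1449 and 1006 at 24 h and 462, 630.4 and 714 at 36 h. No array of one time overlapped those of the next, so that the order of the 4 larval groups was also the order of time.

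**Figure D1:**
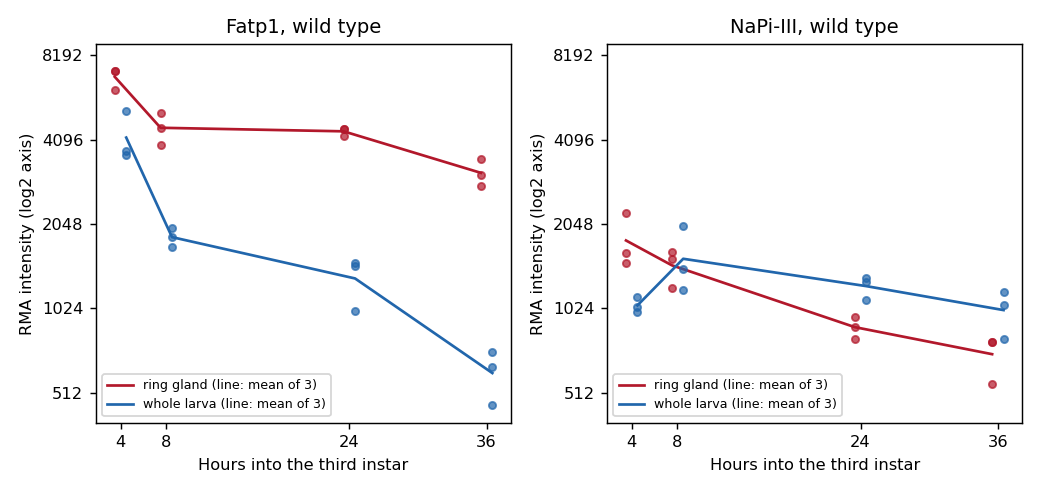
RMA intensity (log2 axis) of Fatp1 (left) and NaPi-III (right) against hours into the third instar in wild-type ring gland (red) and whole larva (blue). Points are arrays, 3 a group, and lines join group means. Fatp1 goes from 6870 to 3120 in gland and from 4170 to 602 in larva, while the NaPi-III lines cross between 4 and 8 h.

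The time steps of Fatp1 were tested with limma, with Benjamini-Hochberg adjustment over all 16637 transcripts and a threshold of 0.05. Between 4 and 8 h it fell in whole larva to 44.7% of the 4 h level (log2 change -1.16, SE 0.17, adjusted p = 0.00081). Transcripts called at this step, in either direction, made up 2.30% of the table, and 169 had a more negative change than Fatp1. From 8 to 24 h it fell by 0.51 (SE 0.17, adjusted p = 0.047), a call near the threshold, where 20.7% of transcripts were called. From 24 to 36 h it fell by 1.13 (SE 0.17, adjusted p = 0.00024), to 45.8% of the 24 h level, where 22.1% were called.

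The middle call in whole larva was fragile. Leaving out replicate 1, 2 or 3 at 8 h gave log2 changes of -0.45, -0.51 and -0.56, none called (adjusted p = 0.15, 0.094 and 0.06). Leaving out replicate 3 at 24 h, the lowest array, gave -0.32 (adjusted p = 0.26). The last step lost its call when only the 6 compared arrays were fitted (-1.13, adjusted p = 0.052).

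In ring gland, Fatp1 was called at 0 of the 3 steps in limma's test, and 2 had an unadjusted p under 0.05. The log2 change was -0.61 ± 0.17 (SE) from 4 to 8 h (adjusted p = 0.053), with groups that did not overlap, at a step where 4.75% of transcripts were called. It was -0.03 from 8 to 24 h (95% interval -0.4 to 0.33, adjusted p = 0.96), where 10.7% were called. From 24 to 36 h it was -0.5 ± 0.17 (adjusted p = 0.074), again without overlap, where 11.0% were called. The first and last steps lay close to the threshold. With arrays centred on a common median they were -0.66 and -0.59, both called (adjusted p = 0.025 for each), and with a quantile normalization -0.65 and -0.56 (adjusted p = 0.035 and 0.045).

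Over the whole interval from 4 to 36 h, which was known beforehand, Fatp1 in gland ended at 45.4% of its 4 h level and in larva at 14.4%, log2 changes of -1.14 and -2.8. The median transcript had a log2 change of 0.15 in gland and -0.08 in larva.

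The difference between the tissues in each single step follows from values taken to be behind the choice and was not tested. For Fatp1 the gland minus larva difference in log2 change was 0.56 ± 0.25 (SE) from 4 to 8 h, 0.47 ± 0.25 from 8 to 24 h and 0.63 ± 0.25 from 24 to 36 h. It was positive in each step, that is, the log2 change was less negative in gland. The last value was 0.39 with array weights and 0.81 once the 24 h larval replicate 3 was left out.

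NaPi-III followed another course. In ring gland the arrays read 1490.45, 2251 and 1618 at 4 h. At 8 h they read 1213, 1625 and 1541, which overlaps the 4 h range. At 24 h they read 880.4, 956 and 797, below all the earlier gland arrays. At 36 h they read 780.01, 551 and 779, just below the 24 h arrays.

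In whole larva NaPi-III ended near its first level. The arrays read 1124, 1036 and 998 at 4 h. They read 2014, 1193 and 1417 at 8 h, all above the 4 h arrays but with replicate 1 far above the rest. At 24 h they read 1094, 1316 and 1269.96, and at 36 h 799, 1169.8 and 1056. The larval groups at 8, 24 and 36 h overlapped from each to the next.

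The phosphate carrier's transcript was called lower by limma at 1 of its 3 steps in gland. In larva, where 2.30, 20.7 and 22.1% of all transcripts were called in order of time, it was called at 0 of 3. It had an unadjusted p under 0.05 at 1 larval step. From 8 to 24 h it fell in gland by 0.73 on the log2 scale (SE 0.2, limma adjusted p = 0.023), to 60.4% of the 8 h level, a step at which 10.7% of all transcripts were called. Its gland log2 change was -0.28 from 4 to 8 h (95% interval -0.7 to 0.14, adjusted p = 0.5) and -0.33 from 24 to 36 h (-0.75 to 0.08, adjusted p = 0.32). At these gland steps 4.75 and 11.0% of all transcripts were called. In larva the steps were 0.52 (0.1 to 0.94, adjusted p = 0.22), -0.3 (-0.72 to 0.12, adjusted p = 0.32) and -0.3 (-0.72 to 0.12, adjusted p = 0.31). The first of these was 0.31 once the 8 h larval replicate 1 was left out.

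The called step of NaPi-III also depended on single arrays. It lost its call without replicate 2 or 3 of gland at 8 h (-0.64 and -0.68, adjusted p = 0.095 and 0.074) and without replicate 1 or 3 of gland at 24 h (-0.73 and -0.66, adjusted p = 0.062 and 0.088). It was called in the other 2 removals and under each of 8 other settings.

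**Figure D2:**
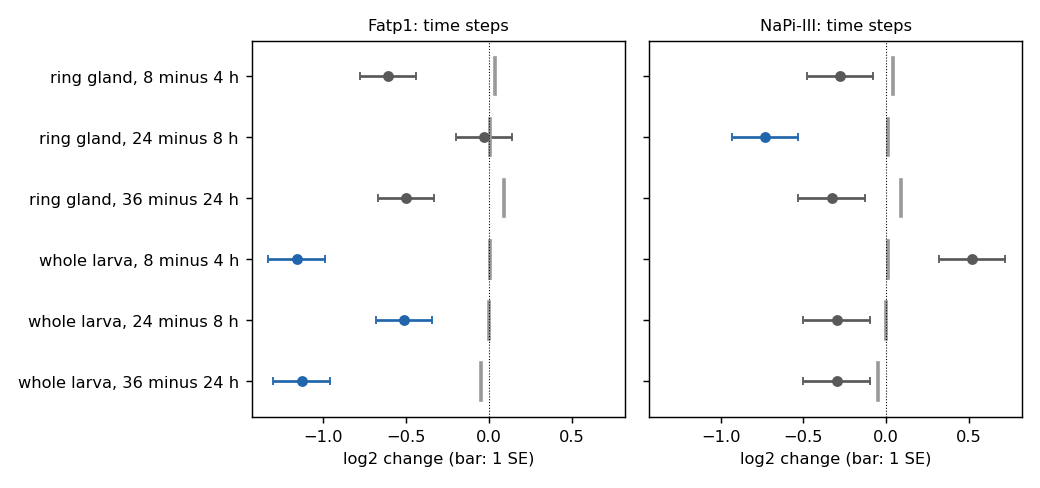
Log2 change of Fatp1 (left) and NaPi-III (right) in each adjacent time step of the wild-type part, with bars of 1 SE. Blue points were called lower, grey points were not called, and grey ticks mark the median change of all transcripts. Fatp1 has its called steps in whole larva, at -1.16, -0.51 and -1.13, and NaPi-III its called step in ring gland, at -0.73.

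From 4 to 36 h NaPi-III in gland ended at 39.5% of its first level (log2 change -1.34, known beforehand), and in larva at 94.7% (-0.08), with larval groups that overlapped. The gland minus larva differences in log2 change of the single steps, likewise not tested, were -0.8 ± 0.28 (SE), -0.43 ± 0.28 and -0.04 ± 0.28. The first moved between -0.96 and -0.59, and the last between -0.2 and 0.13, when 1 array was left out.

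Set side by side at each time, the ratio of gland to larva went in opposite ways for the transporters. Fatp1 was 1.66-fold higher in gland at 4 h, 2.45-fold at 8 h, 3.39-fold at 24 h and 5.25-fold at 36 h, without overlap at any of these times. Of all 16637 transcripts, 4155, 1845, 822 and 500 had a more positive difference at these times. The log2 differences were 0.74, 1.29, 1.76 and 2.39, each ± 0.17 (SE). The median transcript was itself higher in gland by 0.18, 0.22, 0.27 and 0.44, and with arrays centred the Fatp1 differences were 0.51, 1.03, 1.48 and 1.95.

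NaPi-III was 1.67-fold higher in gland at 4 h, and lower there at 24 and 36 h, at 71.6 and 69.8% of the larval level. The groups did not overlap at these 3 times and overlapped at 8 h. Of all 16637 transcripts, 4113 had a more positive difference at 4 h, and 4057 and 3981 a more negative one at 24 and 36 h. The log2 differences from 4 to 36 h were 0.74, -0.06, -0.48 and -0.52, each ± 0.2 (SE). With arrays centred, they were 0.51, -0.31, -0.77 and -0.96.

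**Figure D3:**
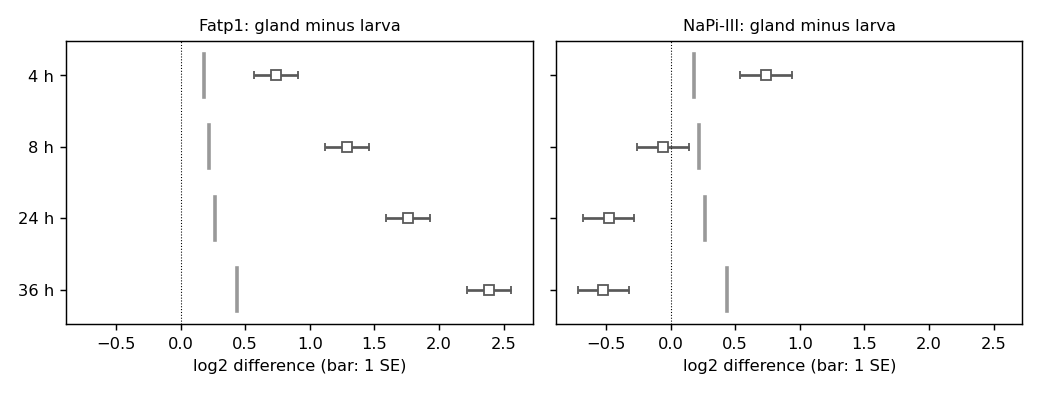
Log2 difference between ring gland and whole larva at each time for Fatp1 (left) and NaPi-III (right), with bars of 1 SE. These differences were known when the transcripts were chosen and carry no test. Grey ticks mark the median of all transcripts, 0.18 to 0.44. Fatp1 goes from 0.74 to 2.39, and NaPi-III from 0.74 to -0.52.

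Ordered by level in the wild-type part, Fatp1 was highest in gland at 4 h, followed by gland at 8 and 24 h and larva at 4 h, whose ranges overlapped from each to the next. With arrays centred, larva at 4 h came second. Gland at 36 h and larva at 8, 24 and 36 h came below, each apart from its neighbours. For NaPi-III the first 7 groups in the order, from gland at 4 h (1790) to gland at 24 h (878), overlapped each with the next, and gland at 36 h (703) alone stood apart at the bottom.

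In the driver crosses the levels of Fatp1 were close together 18 h before puparium formation. The control arrays read 4745, 4901 and 5051, with a mean of 4900 ± 153 (SD, n = 3). The RasV12 arrays read 4256, 4027 and 4516. The torso-RNAi arrays read 4876, 4501 and 3804. RasV12 lay below every control array, and torso-RNAi overlapped both.

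At 8 h the mean level of Fatp1 was lower in each cross. The controls read 4025, 3351 and 3093, and the torso-RNAi arrays 3617, 2417 and 4039, a wide spread. The RasV12 arrays read 2487, 2398 and 2482, the smallest SD of the 14 groups for Fatp1 (49.9, n = 3). They lay below all controls but included the lowest torso-RNAi array in their range.

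**Figure D4:**
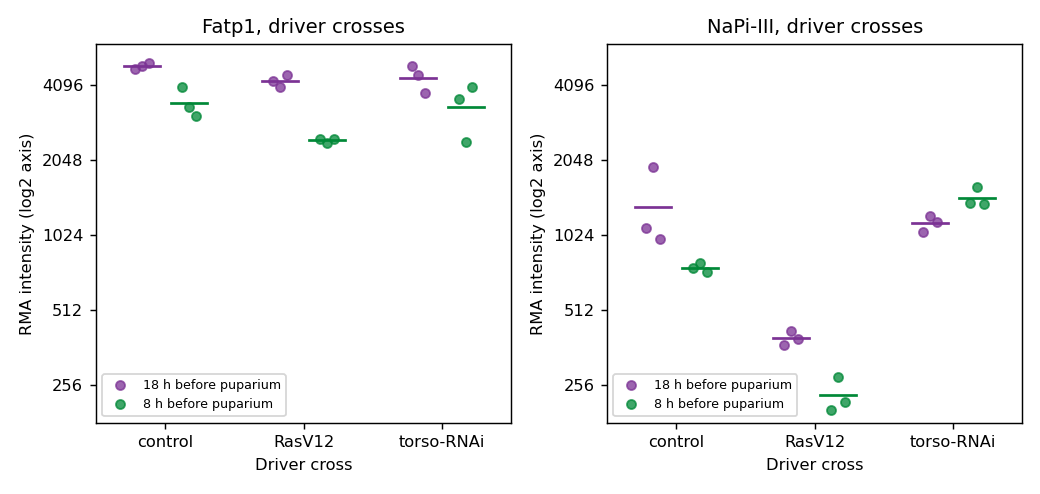
RMA intensity (log2 axis) of Fatp1 (left) and NaPi-III (right) in ring glands of the 3 driver crosses, 18 h (purple) and 8 h (green) before puparium formation. Points are arrays, 3 a group, and lines are group means. NaPi-III is lowest in RasV12, at 394 and 232, and is higher at 8 h (1440) than at 18 h (1140) in torso-RNAi alone.

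At 8 h Fatp1 in RasV12 glands stood at 70.8% of the control level (log2 change -0.5, SE 0.16, limma adjusted p = 0.02), a called decrease. Of all transcripts 42.3% were called in this comparison, and 3479 had a more negative change. The call was lost without control replicate 1 or RasV12 replicate 2 at 8 h (-0.39 and -0.48, adjusted p = 0.092 and 0.055). At 18 h the change was -0.2 (95% interval -0.54 to 0.14, adjusted p = 0.32), where 44.5% were called.

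Torso-RNAi glands gave no call for Fatp1 against the same control arrays, at either time, and 0 of 2 unadjusted p-values were under 0.05. The log2 change was -0.16 at 18 h (95% interval -0.5 to 0.17, limma adjusted p = 0.45) and -0.08 at 8 h (-0.42 to 0.26, adjusted p = 0.74), where 41.0 and 39.1% of transcripts were called. The 8 h value was 0 with arrays centred, and 0.14 without torso-RNAi replicate 2.

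RasV12 was also set directly against torso-RNAi. For Fatp1 the log2 difference was -0.04 at 18 h (95% interval -0.38 to 0.3, limma adjusted p = 0.87), where 49.2% of transcripts were called. At 8 h Fatp1 was lower in RasV12 by -0.42 ± 0.16 (SE, adjusted p = 0.04), where 50.9% were called, although the groups overlapped. That call held in 1 of 6 removals of a single array, the one without torso-RNAi replicate 2, where the difference was -0.64 (adjusted p = 0.00063). Without RasV12 replicate 1, 2 or 3 it was -0.43, -0.4 and -0.43 (adjusted p = 0.074, 0.091 and 0.073). Without torso-RNAi replicate 1 or 3 it was -0.35 and -0.27 (adjusted p = 0.13 and 0.18), and with only the 6 compared arrays fitted the adjusted p was 0.17.

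NaPi-III covered a wider range in the same glands. At 18 h the controls read 1093, 1913 and 989.9, with replicate 2 well above the other two. The RasV12 arrays read 371, 422 and 389.7. The torso-RNAi arrays read 1052, 1225 and 1150.3. RasV12 lay far below both other crosses, which overlapped each other.

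At 8 h the crosses were apart from one another in NaPi-III. The controls read 752, 789 and 724. The RasV12 arrays read 202, 274 and 219, and the torso-RNAi arrays 1371, 1596 and 1367. The control stood between RasV12 below and torso-RNAi above, with no overlap between any pair of crosses.

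Expressed as differences, which were known beforehand, NaPi-III in RasV12 stood at 30.9% of the control level at 18 h and at 30.5% at 8 h. In torso-RNAi it was 1.91-fold higher than control at 8 h and at 89.4% of it at 18 h. Without control replicate 2 at 18 h, the RasV12 log2 difference went from -1.7 to -1.4 and that of torso-RNAi from -0.16 to 0.13. These comparisons share the control arrays at each time.

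Directly against torso-RNAi, NaPi-III in RasV12 was 2.9-fold lower at 18 h and 6.27-fold lower at 8 h, log2 differences of -1.53 and -2.65, each ± 0.19 (SE). Of all transcripts, 1475 had a more negative difference at 18 h and 297 at 8 h. The arrays were also all taken at 18 h, the hour in the titles, and pooled over the gut stages that the titles keep apart. Over 6 arrays a cross, NaPi-III then differed by 0.39 between torso-RNAi and control and by -2.09 between RasV12 and torso-RNAi. Between RasV12 and control, the 9 alternative settings, this one included, gave differences of -1.74 to -1.61.

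**Figure D5:**
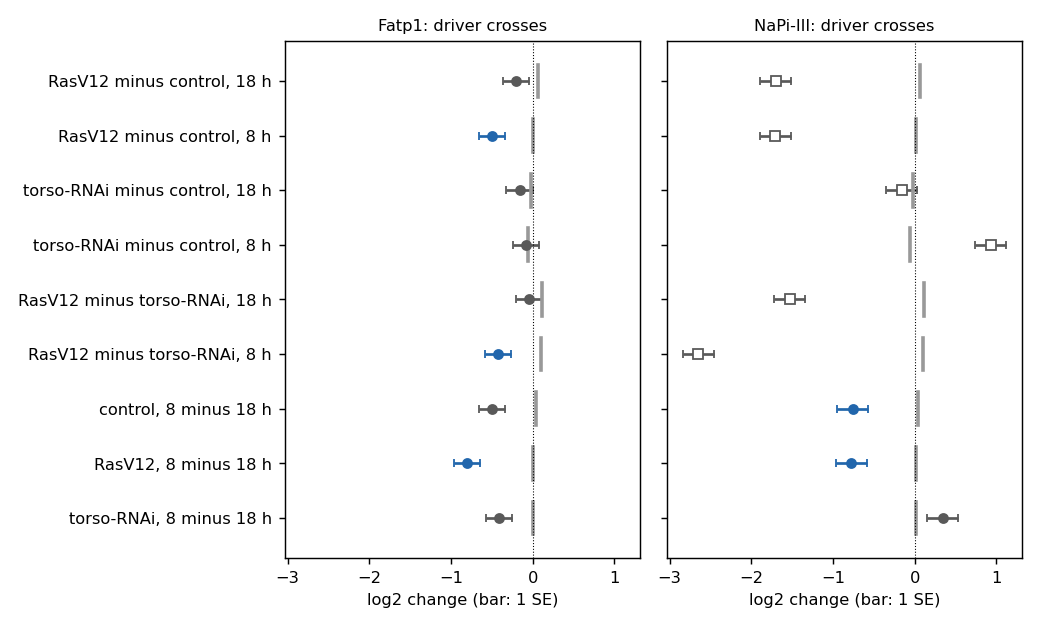
Log2 changes of Fatp1 (left) and NaPi-III (right) between driver crosses and between 8 and 18 h before puparium formation within a cross, with bars of 1 SE. Filled points were tested (blue, called lower; grey, not called), open squares were not tested, and grey ticks mark the median of all transcripts. Fatp1 lies between -0.8 and -0.04, and NaPi-III between -2.65 and 0.93.

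The change between 18 and 8 h within each cross was tested for both transcripts. For NaPi-III, the genotype differences taken as known fix how these changes differ between crosses. Its tests are thus not independent of each other or of the known values, and do not bear on how the crosses differ. NaPi-III fell in control glands to 59.2% of its 18 h level (log2 change -0.76, SE 0.19, limma adjusted p = 0.019) and in RasV12 glands to 58.4% (-0.78, SE 0.19, adjusted p = 0.0065). In torso-RNAi glands it was not called, at 0.34 (95% interval -0.07 to 0.75, adjusted p = 0.22), although all the 8 h arrays lay above those of 18 h. The shares of all transcripts called were 13.8, 33.3 and 26.2% in control, RasV12 and torso-RNAi.

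The control change of NaPi-III rested partly on 1 high array. Without replicate 2 at 18 h it was -0.46 and stayed called (adjusted p = 0.037). Without replicate 1, 2 or 3 at 8 h it was -0.75, -0.79 and -0.73 and was not called (adjusted p = 0.057, 0.05 and 0.053). With only the 6 compared arrays fitted, the adjusted p was 0.11. The RasV12 change was called in all 6 removals and under all 8 other settings. The difference between crosses in this change, not tested for NaPi-III, was 1.09 ± 0.27 (SE) for torso-RNAi minus control, or 0.8 without control replicate 2 at 18 h. It was -0.02 ± 0.27 for RasV12 minus control and -1.11 ± 0.27 for RasV12 minus torso-RNAi.

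Fatp1 fell between 18 and 8 h in RasV12 glands by 0.8 on the log2 scale (SE 0.16, limma adjusted p = 0.0015), to 57.6% of its 18 h level, and was called in all 6 removals of an array. In control glands the change was -0.5 ± 0.16 (adjusted p = 0.051), without overlap between the times, and 6 of 8 other settings called it, as did the removal of control replicate 1 at 8 h (-0.61, adjusted p = 0.047). In torso-RNAi glands it was -0.41 (95% interval -0.75 to -0.07, adjusted p = 0.069). It was -0.56 and called without torso-RNAi replicate 3 at 8 h (adjusted p = 0.021), and -0.19 without replicate 2 (adjusted p = 0.29).

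The test of the difference between crosses in this change called Fatp1 in 0 of 3 pairs, and 0 had an unadjusted p under 0.05. The log2 difference was -0.3 ± 0.22 (SE) for RasV12 minus control, 0.08 ± 0.22 for torso-RNAi minus control and -0.38 ± 0.22 for RasV12 minus torso-RNAi, with limma's adjusted p = 0.47, 0.92 and 0.28. All transcripts were called at 7.48, 3.01 and 16.7%. Without torso-RNAi replicate 2 at 8 h the last was -0.6 and was called (adjusted p = 0.022).

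In order of level in the driver crosses, the 3 groups at 18 h came first for Fatp1, from control (4900) to RasV12 (4270), overlapping from each to the next. Control and torso-RNAi at 8 h followed and overlapped each other, and both reached above the lowest torso-RNAi array of 18 h. RasV12 at 8 h came last, overlapping torso-RNAi at 8 h. With arrays centred, control and torso-RNAi at 8 h changed places. For NaPi-III, torso-RNAi at 8 h, control at 18 h and torso-RNAi at 18 h overlapped from each to the next at the top. Control at 8 h, RasV12 at 18 h and RasV12 at 8 h followed, each apart from its neighbours.

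The replicate spread of both transcripts was ordinary for these arrays. The residual SD on the log2 scale was 0.218 for Fatp1 and 0.252 for NaPi-III in the wild-type part, where the median transcript had 0.219. In the driver crosses it was 0.197 and 0.243, against a median of 0.216.

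Likeness of pattern was measured as Pearson's r between mean log2 intensities of the groups, among transcripts whose group means spanned at least 1 on that scale (named transcripts were taken whatever their span), and is a description over groups that share arrays and normalization. Over the 8 wild-type groups Fatp1 and NaPi-III had r = 0.195 with each other, and over the 6 driver-cross groups r = 0.581. The transcript most like Fatp1 was FBtr0077971 in the wild-type part (r = 0.986), and FBtr0073954 in the driver crosses (r = 0.992). For NaPi-III they were FBtr0075437 (r = 0.914) and FBtr0074475 (r = 0.998). None of these 4 identifiers has a gene name here.

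More transcripts had a high r with Fatp1 than with NaPi-III in the wild-type part, and fewer in the driver crosses. The count for a typical transcript was not made, so none of these counts is shown to be unusual. Of 11173 transcripts, 329 had r over 0.9 with Fatp1 and 7 with NaPi-III. In the driver crosses 131 of 8020 transcripts had such an r with Fatp1, and 421 of 8019 with NaPi-III. Among the 15 other named transcripts, the most like Fatp1 were SuUR, which encodes a chromatin protein of polytene chromosomes, in the wild-type part (r = 0.844, span 1.51 on the log2 scale) and alpha-Spec, a membrane skeleton spectrin, in the driver crosses (r = 0.731, span 0.6). For NaPi-III they were rdx, an adaptor of Cul3 ubiquitin ligases, in the wild-type part (r = 0.751, span 0.62) and the histone deacetylase HDAC3 in the driver crosses (r = 0.95, span 0.28).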

How the data were processed

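The deposited table holds intensity values on a linear scale for 16637 FlyBase transcripts on 42 arrays, to which the authors applied RMA, per the submitters' processing notes. The version, build, probe annotation, background step and slide were not given in the sources used here, and slide effects were not tested. The log2 of each value, with no pseudocount, was fitted by part with group means and 27 contrasts in limma 3.58.1 (R 4.3.3), with eBayes and Benjamini-Hochberg adjustment over all transcripts of a contrast. Calls needed a 2-sided adjusted p under 0.05, and this step was checked on simulated data. The check was made for gland from 24 to 36 h and for RasV12 against torso-RNAi at 18 h. It recovered 40% of planted 1.5-fold changes in each, and 72 and 70% of 2-fold changes. A change of such a size that was not called is therefore not shown to be absent. Changes were planted in far fewer transcripts than were called in the real comparisons (11.0 and 49.2%), so recovery there may differ. Members, gene lists and tests were chosen with earlier results of these data known. A planned test of tissue by time step was dropped, since it follows from values taken to be behind the choice. Beyond the members, the rule named, for each member and part, the most correlated transcript and the most correlated named one. Names came from identifiers held in synonyms of the RefSeq gene table (Release 6 plus ISO1 MT). Of 44 matched identifiers, 16 belonged to 1 gene and 28 to several. Fatp1 has 4 RefSeq transcripts and NaPi-III 2, and which of them the probes also read is not known here. Same-numbered replicates deviated together in 0 of 21 group pairs compared (every r over 0.1 was required), so the numbers were not taken as pairs. Alternatives were normalization, centring, pseudocount, filter, moderation, weights, arrays fitted, replicate block and removal of each array.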

Additional observations from a re-analysis of the deposited data

Results flagged for a closer look

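NaPi-III is named here for 5 pairs of effects under the same contrast. In each pair, both effects were without overlap between the groups compared, and their signs were opposite. None of the differences between paired effects was tested, since the transcript was chosen with its values known. The log2 difference between ring gland and whole larva was positive at 4 h and negative at 24 and 36 h, and these effects differed by 1.22 and 1.26. The change from 18 to 8 h before puparium formation was negative in control and RasV12 glands. In torso-RNAi glands it was positive but not called (0.34, 95% interval -0.07 to 0.75, limma adjusted p = 0.22). These changes differed by -1.09 for control minus torso-RNAi and -1.11 for RasV12 minus torso-RNAi. Without control replicate 2 at 18 h, a high array, torso-RNAi minus control was 0.8. At 8 h the effects of RasV12 and torso-RNAi, against the same control arrays, were of opposite sign and differed by -2.65. The control cancels in that value, which is the direct difference between RasV12 and torso-RNAi given above. The pairs share arrays and are not independent of each other. All 5 differences follow from values given above and are no further support for them. How many other transcripts had such pairs was not counted. For Fatp1 there was no such pair.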

How the results depend on the processing

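Limits. Precision is set by 3 arrays a group, brightness above background could not be judged without probe data, and calls near the threshold moved with the setting. The 54 values given for the 2 transcripts were recomputed 834 times. Of these, 772 kept their direction and call or, where untested, moved by less than 1 residual SD of the transcript. The cause of the other shifts was not tested, except that leaving out arrays or fitting fewer of them leaves fewer samples.

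For Fatp1 in ring gland, the step from 4 to 8 h was called at -0.65 with quantile normalization, -0.66 with arrays centred, and -0.61 with a pseudocount of 16, without the dimmest 20% of transcripts and with trend and robust moderation. The step from 24 to 36 h was called at -0.56 with quantile normalization and -0.59 with arrays centred. For Fatp1 in control glands, the change from 18 to 8 h was called at -0.52 with quantile normalization, -0.44 with array weights, and -0.5 with the pseudocount, without dim transcripts, with trend and robust moderation and with the compared arrays alone.

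Calls were lost with the compared arrays alone for Fatp1 in whole larva from 8 to 24 h (-0.51) and 24 to 36 h (-1.13), for Fatp1 in RasV12 against torso-RNAi at 8 h (-0.42) and for NaPi-III in control glands from 18 to 8 h (-0.76). With the replicate block, the Fatp1 step in whole larva from 8 to 24 h was -0.51 and not called (adjusted p = 0.056). The block changed no other call, and the replicate numbers were not shown to pair arrays.

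With arrays centred, the gland minus larva differences of Fatp1 were 0.51, 1.03, 1.48 and 1.95 from 4 to 36 h. Those of NaPi-III were 0.51, -0.31, -0.77 and -0.96. With array weights the Fatp1 difference was 2.17 at 36 h, and its tissue difference in the step from 24 to 36 h was 0.39. Fatp1 in torso-RNAi against control at 8 h was 0 with arrays centred. With the 8 h arrays taken at 18 h, NaPi-III was 0.39 in torso-RNAi against control and -2.09 in RasV12 against torso-RNAi.

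Leaving out 1 array at a time moved Fatp1 between -0.13 and 0.06 in gland from 8 to 24 h and between -0.61 and -0.32 in larva at that step. NaPi-III ranged from -0.85 to -0.64 in gland from 8 to 24 h. In the crosses, the change of Fatp1 from 18 to 8 h ranged from -0.61 to -0.42 in control and from -0.56 to -0.19 in torso-RNAi. Its differences between crosses in that change ranged from -0.07 to 0.3 for torso-RNAi minus control and from -0.6 to -0.23 for RasV12 minus torso-RNAi. Fatp1 ranged from -0.58 to -0.39 for RasV12 against control at 8 h, from -0.23 to 0.14 for torso-RNAi against control at 8 h, and from -0.14 to 0.04 and -0.64 to -0.27 for RasV12 against torso-RNAi at 18 and 8 h. NaPi-III ranged from -0.94 to -0.46 for control from 18 to 8 h, from -1.88 to -1.4 and -0.34 to 0.13 for RasV12 and torso-RNAi against control at 18 h, and from -0.31 to 0.16 and 0.8 to 1.28 for RasV12 and torso-RNAi minus control in the change from 18 to 8 h.

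Counts of called transcripts moved by over 1.5 times in 35 of 273 recomputations. With the compared arrays alone, the gland steps gave 90, 1069 and 727 in place of 790, 1774 and 1837. The larval steps from 4 to 8 and 24 to 36 h gave 686 and 898 in place of 383 and 3683, and torso-RNAi from 18 to 8 h 2380 in place of 4360. With array weights, the larval step from 4 to 8 h gave 1112 and control from 18 to 8 h 4325 in place of 2304. The changes of RasV12 and torso-RNAi minus control gave 1925 and 751 in place of 1245 and 500. All other such moves came from leaving out 1 array, with counts down to 399 for gland and 183 for larva from 4 to 8 h and 281 for torso-RNAi minus control.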
